A study of Mus musculus with 95 samples.

Results

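The kidney vessel genes described here were the endothelial genes Pecam1, Cdh5, Kdr, Flt1, Tek, Emcn, Ehd3, Plvap and Vwf, and Vegfa, the growth factor that endothelium answers to. A probe set (a group of array probes that reads 1 transcript region) was taken where one of these symbols was its only gene symbol in the array annotation, which gave 15 probe sets for the 10 genes, out of 45037 probe sets and 17097 genes tested. Where a gene had several, the one of highest mean signal stood for it. Values are log2 signal, so a difference of 1 is a doubling.

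Whole kidneys came from 95 SNF1 mice, the F1 of SWR and NZB parents and a lupus-prone strain. The mice were female, and were either left untreated or, at 9 weeks of age, injected into the peritoneum with pristane, a hydrocarbon oil, which in this strain brings on lupus nephritis, an immune inflammation of the kidney, earlier. All groups share the SNF1 background, so the untreated mice are age-matched and lupus-prone as well. Weeks count from the injection. Untreated groups of 7, 10, 9, 10, 10 and 5 mice were collected at weeks 0, 2, 4, 8, 12 and 14, and pristane groups of 9, 10, 8, 8 and 9 mice at weeks 2, 4, 8, 12 and 14. The labels call the untreated samples normal and the pristane samples diseased at every week.

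Endothelial cells line every vessel of the kidney, from the fenestrated capillaries of the glomerulus, where blood is filtered, to the capillaries around the tubules. VEGF-A, the product of Vegfa, is made mainly by podocytes and tubule cells next to these vessels and signals through the receptors KDR (VEGFR2) and FLT1 (VEGFR1) on the endothelium; FLT1 also exists as a soluble form that captures the ligand. TEK (Tie2) is the receptor for angiopoietins, the other growth factor system of vessels. PECAM1 and VE-cadherin, the product of Cdh5, hold endothelial cells to each other, endomucin (Emcn) is a surface sialomucin, EHD3 is a membrane trafficking protein of glomerular endothelium, PLVAP forms the diaphragms of fenestrae and caveolae, and VWF is the clotting factor that endothelium stores.

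Promoter sequence from RefSeq (build GRCm38.p6) was at hand for 6 of the 10 genes: Vegfa, Kdr, Flt1, Tek, Emcn and Ehd3. The 250 bases before an annotated start are shown for Vegfa and for the 3 receptor genes. These were chosen because the ligand and its receptors carry the results below and Tek is the receptor of the other pathway. A gene's annotated span can begin farther upstream than that start. The Vegfa window lies just outside its gene's span. Those of Kdr and Flt1 lie inside their spans, which reach 75979072 and 147726438. Most of the Tek window does too, as its span begins at 94739086, and so does the end of the Emcn window. Below, before a gene means before the start used. Each is written 5′ to 3′ on the gene's strand, with capitals marking GGAA or its reverse complement TTCC, the core that ETS transcription factors recognise. Vegfa lies on the minus strand at chr17:46032378-46032627, Kdr on the minus strand at chr5:75978456-75978705, Flt1 on the minus strand at chr5:147726012-147726261 and Tek on the plus strand at chr4:94739039-94739288.
Vegfa: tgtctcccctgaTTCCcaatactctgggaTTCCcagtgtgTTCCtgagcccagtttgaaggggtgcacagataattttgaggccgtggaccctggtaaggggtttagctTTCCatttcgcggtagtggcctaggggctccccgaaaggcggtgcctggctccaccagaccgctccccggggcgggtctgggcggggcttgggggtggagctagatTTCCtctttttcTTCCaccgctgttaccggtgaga
Kdr: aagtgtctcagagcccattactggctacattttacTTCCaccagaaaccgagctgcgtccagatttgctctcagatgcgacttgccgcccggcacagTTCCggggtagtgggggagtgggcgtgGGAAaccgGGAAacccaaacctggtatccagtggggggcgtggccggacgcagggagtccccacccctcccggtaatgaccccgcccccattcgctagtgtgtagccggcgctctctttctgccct
Flt1: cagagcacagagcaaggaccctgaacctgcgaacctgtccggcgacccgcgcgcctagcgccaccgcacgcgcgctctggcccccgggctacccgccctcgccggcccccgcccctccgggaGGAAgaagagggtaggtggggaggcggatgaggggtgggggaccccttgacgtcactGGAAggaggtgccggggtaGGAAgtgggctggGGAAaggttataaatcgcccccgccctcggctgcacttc
Tek: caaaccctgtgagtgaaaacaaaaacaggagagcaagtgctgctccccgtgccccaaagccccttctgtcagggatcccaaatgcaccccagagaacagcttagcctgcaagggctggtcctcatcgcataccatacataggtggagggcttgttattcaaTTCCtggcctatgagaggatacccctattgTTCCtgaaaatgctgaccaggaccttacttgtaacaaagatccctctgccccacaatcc

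The GGAA core was found 6 times before Vegfa, 4 times before Kdr, 4 times before Flt1 and 2 times before Tek, counting both strands. Of all 32851 promoter windows of this length, 93.4% hold it, with a median of 3. The GC box GGGCGG, on either strand, was found 2 times before Vegfa, 2 times before Kdr, 3 times before Flt1 and 0 times before Tek, Emcn and Ehd3, and 32.7% of all windows hold it. The Vegfa gene has 2 annotated starts, of which the farther upstream is shown. The window of Flt1 also holds TATAAA, as 12.4% of all windows do. The core of hypoxia response elements is ACGTG or GCGTG, on either strand, and the first can also be part of the E-box CACGTG. The first form, ACGTG, was found in none of the 6 windows and is in 16.6% of all windows. The second form, GCGTG, which 28.2% of all windows hold, was found 2 times before Kdr, 1 time each before Flt1 and Emcn and 0 times before Vegfa, Tek and Ehd3. The Flt1 window was 70.4% G or C, against a median of 52.4% over all windows, and the Tek window 51.2%. These are counts of letters in a short stretch and say nothing of which factors bind.

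The members lay at different levels of the array signal, which can be set against each other only roughly because probes differ. Over all 95 arrays the mean log2 signal was 9.34 for Tek, 8.77 for Kdr, 8.72 for Vegfa, 8.70 for Flt1, 8.70 for Emcn, 7.76 for Plvap, 7.36 for Ehd3, 6.69 for Pecam1, 5.16 for Cdh5 and 3.95 for Vwf. None of these 10 probe sets was at the floor of the table (log2 2.21) in any kidney. Vwf lay low and had the same value, 3.94, in 44 of the 95 kidneys. Of the 5 further probe sets, one for Cdh5 was at the floor in 85 kidneys and one for Flt1 in 81. In all, 13 of the 15 probe sets were above the 40th percentile of all probe sets.

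Macrophages, resident and infiltrating, were described by the mean log2 signal of 8 of their genes per kidney. In this mean, more cells and more RNA per cell cannot be told apart. That mean lay between 5.18 and 5.62 in the untreated kidneys of week 14 and between 6.44 and 8.06 in the pristane kidneys of that week. At week 12 it lay between 5.71 and 7.10 after pristane, whereas the untreated kidneys ranged from 4.47 to 6.10 except for untreated mouse 10, which stood at 7.89. The mean of 10 adrenal genes reached 8.31 in another untreated kidney of week 12, that of mouse 2. It was 7.56, 6.68 and 6.14 in untreated mice 8, 1 and 4. In pristane mice 4 and 8 it was 7.81 and 5.73, and in the other kidneys of that week at most 3.86. All of these mice were kept. Results of week 12 are also given without untreated mouse 10.

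Vegfa was the member with the largest difference at week 14. In the untreated kidneys its log2 signal was 8.61, 8.73, 8.96, 9.02 and 8.88. In the 9 pristane kidneys it was 8.68, 8.69, 7.71, 7.44, 7.87, 7.68, 7.79, 7.98 and 7.40. Pristane mice 1 and 2 lay within the untreated range and the other 7 lay below every untreated kidney. The untreated mean was 8.84 ± 0.17 (SD, n = 5) and the pristane mean 7.91 ± 0.47 (SD, n = 9), a log2 difference of -0.93 with a standard error of 0.219, or 52.5% of the untreated level (limma, adjusted p = 0.0283). In whole kidney RNA, fewer cells of a type and less RNA per cell cannot be told apart. The second Vegfa probe set pointed the same way with a smaller difference, -0.29 with a standard error of 0.0851 (adjusted p = 0.0539), and 8 of its 9 pristane values lay below all untreated values.

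Kdr, the main signalling receptor for VEGF-A, separated the groups completely at week 14. The untreated kidneys read 8.73, 8.68, 8.98, 8.94 and 8.81, and the pristane kidneys 8.66, 8.45, 7.81, 7.98, 7.93, 8.11, 8.09, 8.59 and 7.76. All 9 pristane kidneys lay below the lowest untreated kidney, which was true of 0.76% of all genes. The log2 difference was -0.67 with a standard error of 0.155, or 62.7% of the untreated level (adjusted p = 0.0263).

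Flt1, the second VEGF receptor, was lower by a like amount. The untreated kidneys lay between 8.84 and 9.08. The pristane kidneys read 8.53, 8.89, 8.16, 8.23, 8.28, 8.05, 8.01, 7.43 and 8.46, and mouse 2 alone was inside the untreated range. The log2 difference was -0.72 with a standard error of 0.183, or 60.9% of the untreated level (adjusted p = 0.0359). A further Flt1 probe set was at 79.2% of the untreated level (log2 -0.34, adjusted p = 0.118) with 7 of 9 pristane kidneys below all untreated ones and 1 above them.

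At week 14, 3 of the 10 members were lower by the test and 0 were higher, where 4.8% of all 17097 genes were lower and 11.8% were called in either direction. The median log2 difference of the members was -0.14, against 0 over all genes. Leaving out 1 mouse changed this count: no member was called once any of the untreated mice 2 to 5 was dropped. The count was 1 (Vegfa) when untreated mouse 1 was dropped, 1 (Kdr) for pristane mouse 3, 6 or 7, 2 (Kdr and Vegfa) for pristane mouse 4, 5 or 9, 3 for pristane mouse 1 or 8 and 4 for pristane mouse 2, when Ehd3 was also called (adjusted p = 0.0398). Kdr was called in 9 of these 14 fits, Vegfa in 7 and Flt1 in 3, with a highest adjusted p of 0.0741, 0.0781 and 0.0921; in every one of the 14 all 3 kept a negative difference.

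**Figure D1:**
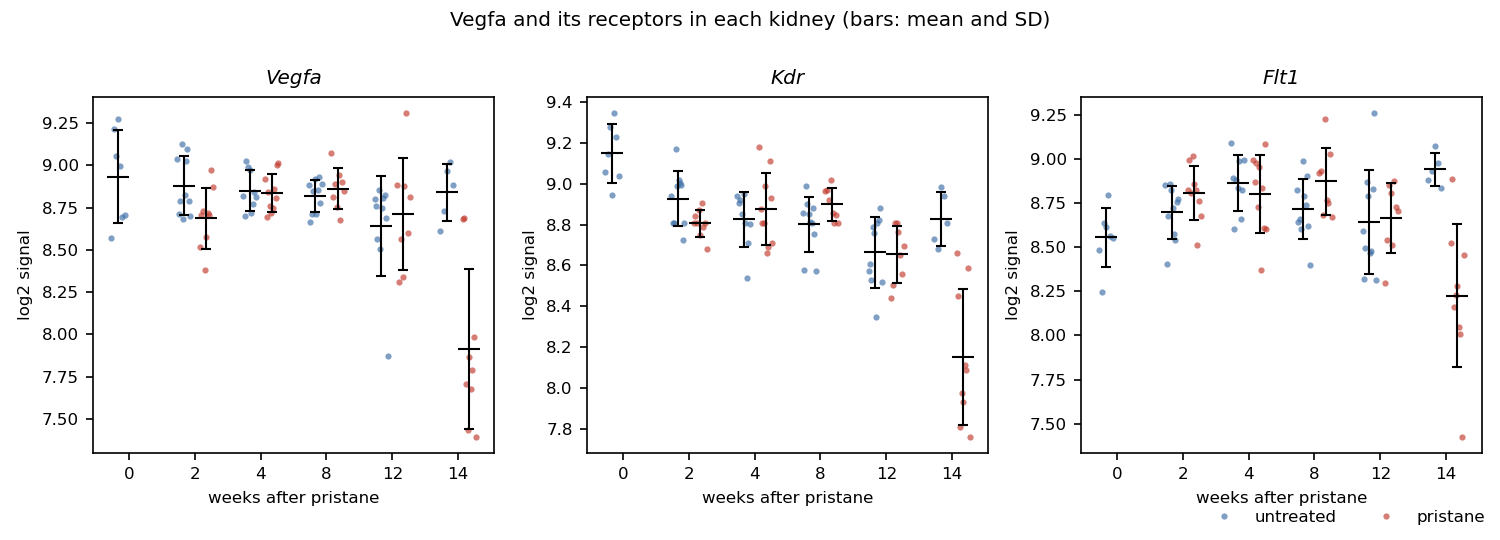
Log2 signal of Vegfa, Kdr and Flt1 in each of the 95 kidneys (points) by week after pristane, with the mean and SD of each group as black bars; blue is untreated and red is pristane. The pristane group of week 14 has the lowest mean in all 3 panels, at 7.91, 8.15 and 8.23.

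The other 7 members did not pass the test at week 14. Ehd3, from glomerular endothelium, had the largest difference among them. Its untreated kidneys read 7.70, 7.58, 7.90, 7.63 and 6.90 and its pristane kidneys 7.35, 7.80, 6.69, 6.63, 6.75, 6.94, 6.88, 6.94 and 7.35, a log2 difference of -0.51 (95% interval -0.96 to -0.05, adjusted p = 0.16). The groups overlapped: untreated mouse 5 read lower than 5 of the 9 pristane kidneys, and pristane mouse 2 lay among the 4 other untreated ones. Its second probe set differed by -0.30 (adjusted p = 0.406). Tek, the angiopoietin receptor, ranged from 9.22 to 9.52 without pristane and from 8.59 to 9.61 with it, a difference of -0.26 (interval -0.60 to 0.08), with 5 pristane kidneys below and 2 above all untreated ones.

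The remaining endothelial genes had differences near or above 0. Pecam1 ranged from 6.49 to 7.06 in untreated and from 6.30 to 7.28 in pristane kidneys, a log2 difference of -0.02 (interval -0.33 to 0.29). Emcn ranged from 8.23 to 9.25 and from 8.37 to 9.37, a difference of -0.02 (interval -0.47 to 0.42). The difference of Kdr, -0.67, had an interval of -1.01 to -0.34, which overlaps that of Emcn. No test compared Kdr with either gene alone. Cdh5 ranged from 4.90 to 5.29 without pristane and from 5.07 to 5.63 with it, and 5 of 9 pristane kidneys lay above all untreated ones; the difference was 0.21 (interval 0.004 to 0.42, p = 0.0463 unadjusted, adjusted p = 0.201). Plvap ranged from 7.46 to 8.08 and from 7.50 to 8.48, a difference of 0.17 (interval -0.15 to 0.50), which was 0.088 without untreated mouse 4. Vwf ranged from 3.43 to 3.94 and from 3.86 to 4.24, a difference of 0.18 (interval -0.01 to 0.36), which was 0.086 without untreated mouse 2.

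**Figure D2:**
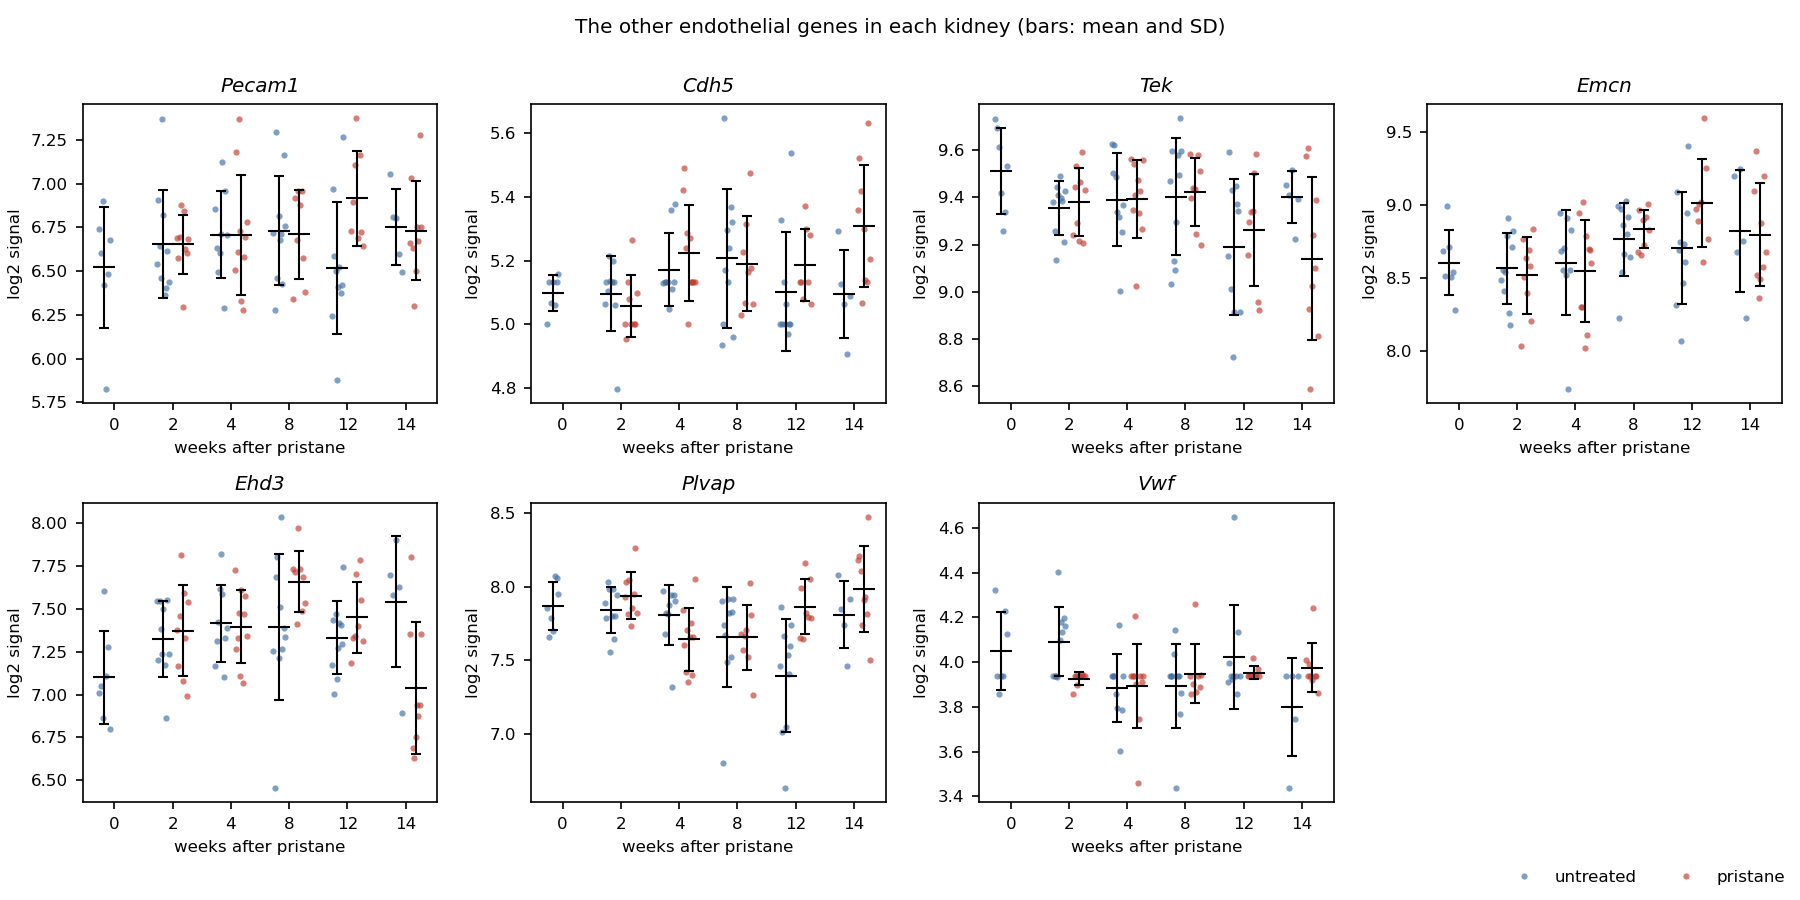
Log2 signal of Pecam1, Cdh5, Tek, Emcn, Ehd3, Plvap and Vwf in each kidney by week, with the mean and SD of each group; blue is untreated and red is pristane. The groups overlap at every week in all 7 panels, and at week 14 the mean of Ehd3 is 7.04 after pristane against 7.54 without it.

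Several measures of other cells moved with the week 14 result, and their part in it was not tested. Of the 8 macrophage genes 6 were higher after pristane and 2 were not called, with Fcgr1, an Fc receptor, up by 3.59 (adjusted p = 0.00179), Cd14, the lipopolysaccharide co-receptor, by 3.26 (adjusted p = 0.00813) and Adgre1, which encodes the F4/80 antigen, by 3.18 (adjusted p = 0.00356) on the log2 scale. Itgam was at the floor in all untreated kidneys of that week. The summed linear signal of the list ranged from 936 to 1325 without pristane and from 2003 to 7078 with it. Pristane mice 1 and 2, whose Vegfa lay in the untreated range, had the lowest macrophage means of their group, 6.44 and 6.46, against 7.66 to 8.06 in the other 7 mice.

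Podocytes and tubule cells are the cells that make most of the kidney's VEGF-A. Of 9 podocyte genes 0 were called, with a median log2 difference of -0.29, and their mean signal ranged from 8.12 to 8.47 in untreated and from 7.68 to 8.60 in pristane kidneys. Pristane mice 1 and 2, the mice with untreated-like Vegfa, stood at 8.50 and 8.60 and the other 7 between 7.68 and 8.21. Of 5 tubule genes 2 were lower: Slc5a2, the proximal glucose transporter, by -1.12 (adjusted p = 0.0474), and Slc12a3, the thiazide-sensitive transporter of the distal convoluted tubule, by -1.08 (adjusted p = 0.0492). The tubule mean ranged from 10.20 to 10.43 without pristane and from 9.38 to 10.15 with it. Here too pristane mice 1 and 2 were highest, at 10.14 and 10.15, against 9.38 to 9.99 in the other 7. These 2 mice were picked by their Vegfa signal, and the part of podocytes and tubule cells in the Vegfa difference was not tested. Of 7 mural and fibroblast genes 2 were higher, Acta2, smooth muscle actin, by 1.60 (adjusted p = 0.041) and Pdgfrb, the pericyte receptor, by 0.71 (adjusted p = 0.0272). The mean of 10 adrenal genes, a sign of adjoining gland in the sample, ranged from 3.52 to 3.77 in untreated and from 3.47 to 6.60 in pristane kidneys. With this mean as a covariate, Vegfa differed by -0.81 (adjusted p = 0.0894), Kdr by -0.61 (adjusted p = 0.0848) and Flt1 by -0.70 (adjusted p = 0.101), and none of them was called.

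At weeks 2, 4, 8 and 12 no member passed the test, where 0.433%, 0.269%, 0.181% and 0.0526% of all genes did (limma). An unadjusted p under 0.05 was found for 3, 0, 0 and 2 members and 3220, 2197, 1634 and 2781 of 45037 probe sets. At week 2 the log2 difference of Vegfa was -0.19 (interval -0.36 to -0.02), of Kdr -0.12 (interval -0.22 to -0.02) and of Vwf -0.17 (interval -0.28 to -0.06), each with an unadjusted p under 0.05 and an adjusted p of 0.598, 0.59 and 0.368. The adrenal genes moved with these differences: their mean ranged from 3.66 to 8.37 with a median of 3.93 in untreated and from 3.76 to 8.77 with a median of 7.82 in pristane kidneys of week 2, and 9 of 10 had an unadjusted p under 0.05, with 0 called. With that mean as a covariate, the differences were -0.086 for Vegfa, -0.069 for Kdr and -0.12 for Vwf, and none had an unadjusted p under 0.05. Adrenal signal and treatment went together at week 2, so this fit cannot tell their parts apart. At week 4 all 10 members lay between -0.17 and 0.05. At week 8 the differences ran from -0.02 for Pecam1 to 0.26 for Ehd3, whose kidneys ranged from 7.41 to 7.97 after pristane and from 6.45 to 8.04 without it.

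At week 12 the highest differences were those of Plvap and Pecam1. Plvap ranged from 6.63 to 7.86, with a median of 7.50, in the 10 untreated kidneys and from 7.65 to 8.16, with a median of 7.81, in the 8 pristane kidneys. Of these 8, 3 lay above every untreated kidney. Untreated week 12 had the lowest Plvap mean of the 11 groups, 7.40. The other untreated groups had means from 7.66 to 7.87, and pristane week 12 had 7.86. The log2 difference was 0.47 (interval 0.16 to 0.78, p = 0.0055 unadjusted by limma, adjusted p = 0.579), and Plvap was called when all 11 groups shared 1 fit (adjusted p = 0.0153). Pecam1 differed by 0.40 (interval 0.07 to 0.73, adjusted p = 0.74) and Emcn by 0.31 (interval -0.04 to 0.65). For Pecam1, untreated week 12 had the lowest mean of the 11 groups, 6.52, and pristane week 12 the highest, 6.92. Kdr, Flt1 and Vegfa differed by -0.01, 0.02 and 0.07. Without untreated mouse 10, the values were 0.51 for Plvap (adjusted p = 0.136), 0.48 for Pecam1 (adjusted p = 0.109), 0.38 for Emcn, -0.03 for Kdr, -0.01 for Flt1 and -0.01 for Vegfa. The macrophage means given above moved with these differences. So did podocyte genes, of which 6 of 9 had an unadjusted p under 0.05 with a median of 0.21. The 16 further endothelial genes did too, of which 6 had one with a median of 0.23. Of all 45037 probe sets 2781 had such a p at week 12. None of either list was called. Their part was not tested.

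**Figure D3:**
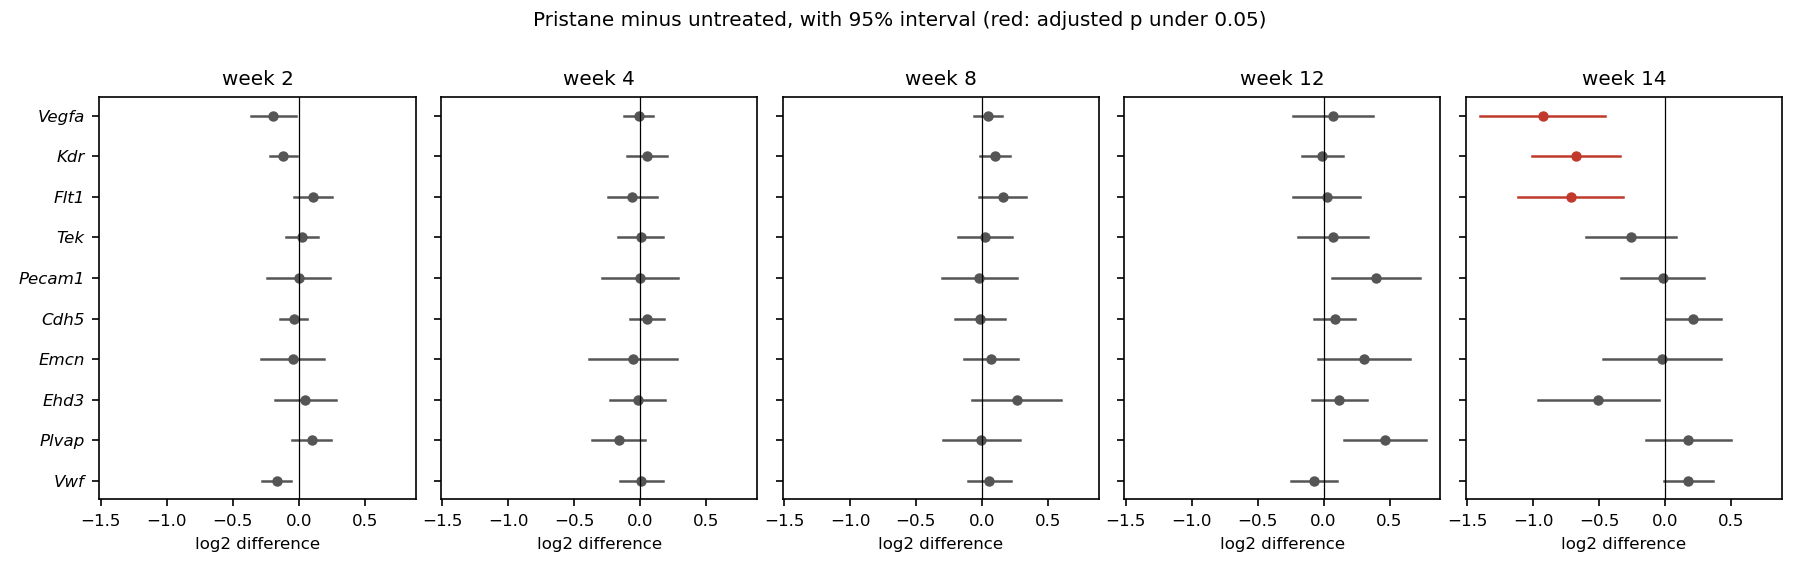
Log2 difference of pristane minus untreated for each of the 10 genes at weeks 2, 4, 8, 12 and 14, with the 95% interval as a line; red marks an adjusted p under 0.05. Red points appear only at week 14, for Vegfa at -0.93, Kdr at -0.67 and Flt1 at -0.72.

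Whether the pristane effect itself moved was tested by interaction terms. From week 12 to week 14 the effect moved by -0.9995 for Vegfa (standard error 0.254, adjusted p = 0.0716), by -0.66 for Kdr (standard error 0.16, adjusted p = 0.0716), by -0.74 for Flt1 (standard error 0.213, adjusted p = 0.0826) and by -0.63 for Ehd3 (standard error 0.216, adjusted p = 0.129). None of the members passed, and 0% of all genes did, although 5 members and 7136 of all probe sets had an unadjusted p under 0.05. The count was 3 without pristane mouse 1 of week 14 and 4 without mouse 2, and with all groups in 1 fit it was 4 (Kdr, Flt1, Ehd3 and Vegfa). Between weeks 2 and 4, 4 and 8, and 8 and 12, no member passed.

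Without treatment, 3 of the 10 members differed across weeks, where 36.8% of all genes did; week, age and day of collection cannot be told apart here. Kdr had means of 9.15, 8.93, 8.83, 8.80, 8.66 and 8.83 in the order of weeks 0, 2, 4, 8, 12 and 14, with SDs from 0.13 to 0.17 (limma F test, adjusted p = 2.7e-05). Flt1 ran the other way at first, from 8.56 at week 0 to 8.86 at week 4, with its highest mean, 8.94, at week 14 (adjusted p = 0.0229), but it was not called after quantile normalization (adjusted p = 0.4995). For Plvap the week means lay between 7.40 at week 12 and 7.87 at week 0 (adjusted p = 0.0148). Vegfa, whose untreated week means ran from 8.64 to 8.93, did not pass (adjusted p = 0.142).

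After pristane, 7 of the 10 members differed across weeks 2 to 14, where 41% of all genes did: Kdr, Vegfa, Flt1, Ehd3, Plvap, Emcn and Cdh5. The week means of Vegfa spanned 0.95 on the log2 scale, those of Kdr 0.75, those of Flt1 0.65 and those of Ehd3 0.62, in each case with the lowest mean at week 14. Emcn (span 0.50) had its highest mean, 9.02, at week 12, and Plvap (span 0.34) and Cdh5 (span 0.25) had theirs at week 14. Tek, Pecam1 and Vwf did not pass. Cdh5 (adjusted p = 0.0444) was called in 26 of the 44 fits that left out 1 mouse.

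Ranked over all 11 groups, most neighbouring means of a member differed by less than the pooled SD of the 2 groups. Kdr was highest in untreated week 0, which stood above the next group by more than that SD, and lowest in pristane week 14, which stood 0.50 below pristane week 12. Flt1 and Vegfa were also lowest in pristane week 14 by more than the SD, by 0.33 and 0.73 below the next group. For Ehd3 and Tek, pristane week 14 was the lowest group too, but not by more than the SD. Cdh5 and Plvap had their highest mean in that same group.

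Kidneys of the same group also differed from each other, and 6 pairs of members were compared over the 95 mice after each group's mean had been removed (permutation tests within groups, two-sided, adjusted over the 6 pairs). Both values of a mouse come from 1 array and 1 piece of tissue. Emcn and Ehd3 deviated together, with Pearson's r = 0.59 and Spearman's rho = 0.53 (permutation p = 1e-05 for both, the smallest that 100000 permutations can give, adjusted p = 3e-05 and 6e-05), and r was 0.57 without the 2 mice farthest from the median of Emcn. Cdh5 and Pecam1 had r = 0.53 and rho = 0.42 (permutation p = 1e-05 and 3e-05, adjusted p = 3e-05 and 9e-05), with r = 0.45 without the 2 farthest mice.

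Vegfa and Kdr had r = 0.42 and rho = 0.33 (permutation p = 0.0023 and 0.00296, adjusted p = 0.0046 and 0.00444). Here r was 0.38 without the 2 farthest mice. It was 0.82 among the 9 pristane mice of week 14 (0.72 to 0.91 when each of these was left out) and 0.18 over all mice without them. For Emcn with Ehd3 r was 0.77 among those 9 mice and 0.56 without them, and for Cdh5 with Pecam1 0.77 and 0.50. These differences were not tested. Kdr and Flt1 had r = 0.31 and rho = 0.43 (permutation p = 0.0255 and 0.00012, adjusted p = 0.0382 and 0.00024), and r was 0.47 without the 2 farthest mice and 0.51 without the pristane mice of week 14, among which it was -0.05. That last value rests on pristane mouse 8, without which it was 0.53. Vegfa with Flt1 (r = 0.19, rho = 0.05, permutation p = 0.206 and 0.635, adjusted p = 0.247 and 0.761) and Plvap with Vwf (r = -0.05, rho = 0.02, permutation p = 0.693 and 0.834, adjusted p = 0.693 and 0.834) did not pass.

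**Figure D4:**
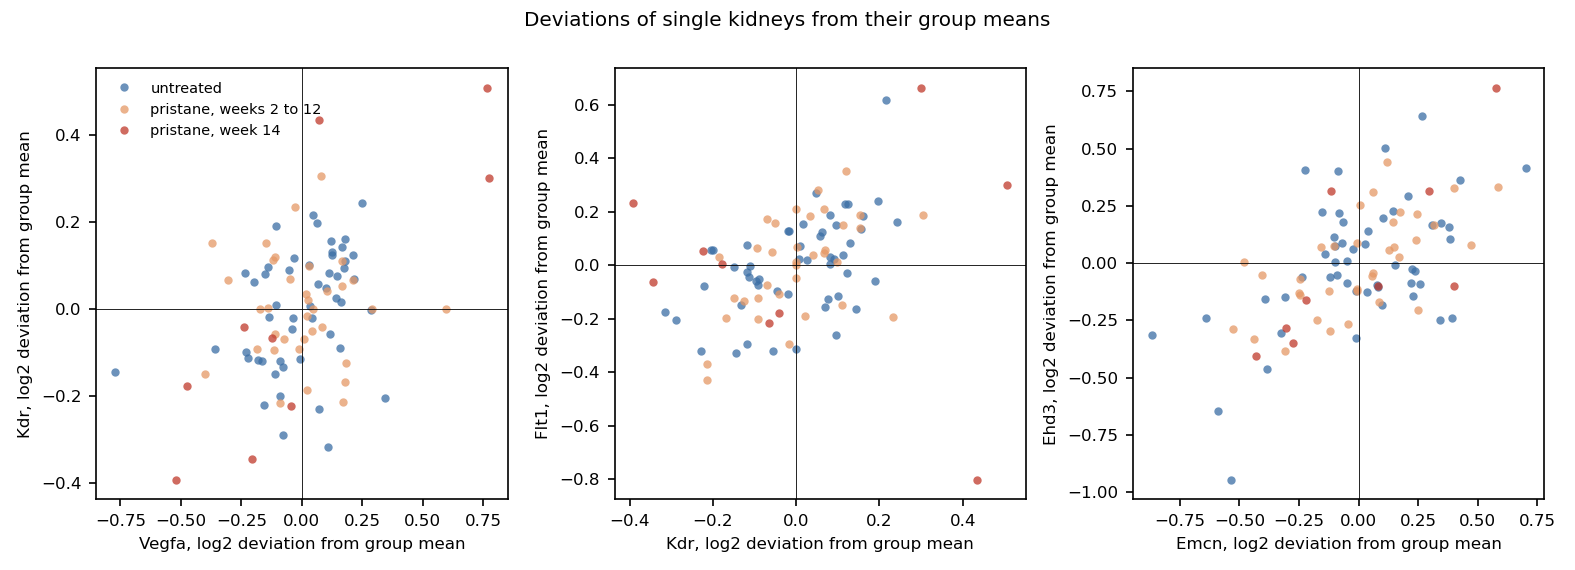
Deviation of each kidney from its group mean, in log2 units, for Vegfa against Kdr, Kdr against Flt1 and Emcn against Ehd3; blue is untreated, orange pristane of weeks 2 to 12 and red pristane of week 14. Emcn and Ehd3 rise together (r = 0.59), with an r of 0.77 among the red points and 0.56 without them. For Vegfa and Kdr r is 0.82 among the red points and 0.18 without them.

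Genes of the same pathways were counted beside the 10 members at week 14. At that week 1192 of all 17097 genes were higher and 820 (4.8%) lower, the background for every list counted there. Of 7 other VEGF ligands and receptors 1 was higher and 0 lower: Nrp1, the co-receptor neuropilin 1, by 0.46 (adjusted p = 0.0166). The ligand Vegfb differed by -0.36 (adjusted p = 0.137) and Flt4, the receptor of lymphatic vessels, by -0.18 (adjusted p = 0.196). Of 6 genes of the angiopoietin and Tie system 0 were called at week 14. At week 8 Angptl4, a secreted inhibitor of lipoprotein lipase that is related to the angiopoietins, was higher by 0.84 (adjusted p = 0.0433).

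Of 16 further endothelial genes 2 were higher and 1 lower at week 14, where 11.8% of all genes were called in either direction. Their median log2 difference was -0.02. Ecscr, an endothelial surface protein, rose by 0.89 (adjusted p = 0.0179) and Cd34, a sialomucin of endothelium that blood progenitors also carry, by 0.50 (adjusted p = 0.0117), whereas Cldn5, the tight junction protein of endothelium, fell by 0.63 (adjusted p = 0.0411). Of 11 endothelial transcription factors 1 was higher, Fli1, an ETS factor that blood cells also express, by 0.62 (adjusted p = 0.019). The higher macrophage signal of the pristane kidneys moved with these genes, and its part was not tested. None of 4 further glomerular endothelial genes was called, and of 9 arterial and venous genes 1 was lower, the Notch target Hey1, by -0.63 (adjusted p = 0.0316).

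Of 4 genes of endothelial activation 2 were higher, the leukocyte adhesion molecules Vcam1 by 2.10 (adjusted p = 0.0261) and Icam1 by 1.47 (adjusted p = 0.0193), which other kidney and immune cells can express too. Of 8 genes of vascular tone and haemostasis 0 were called, and Edn1, the vasoconstrictor endothelin 1, differed by 1.15 (adjusted p = 0.0667). Of 10 hypoxia targets 1 was lower, Egln1, the prolyl hydroxylase that marks HIF for degradation, by -0.75 (adjusted p = 0.0188), and the median was -0.13.

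**Figure D5:**
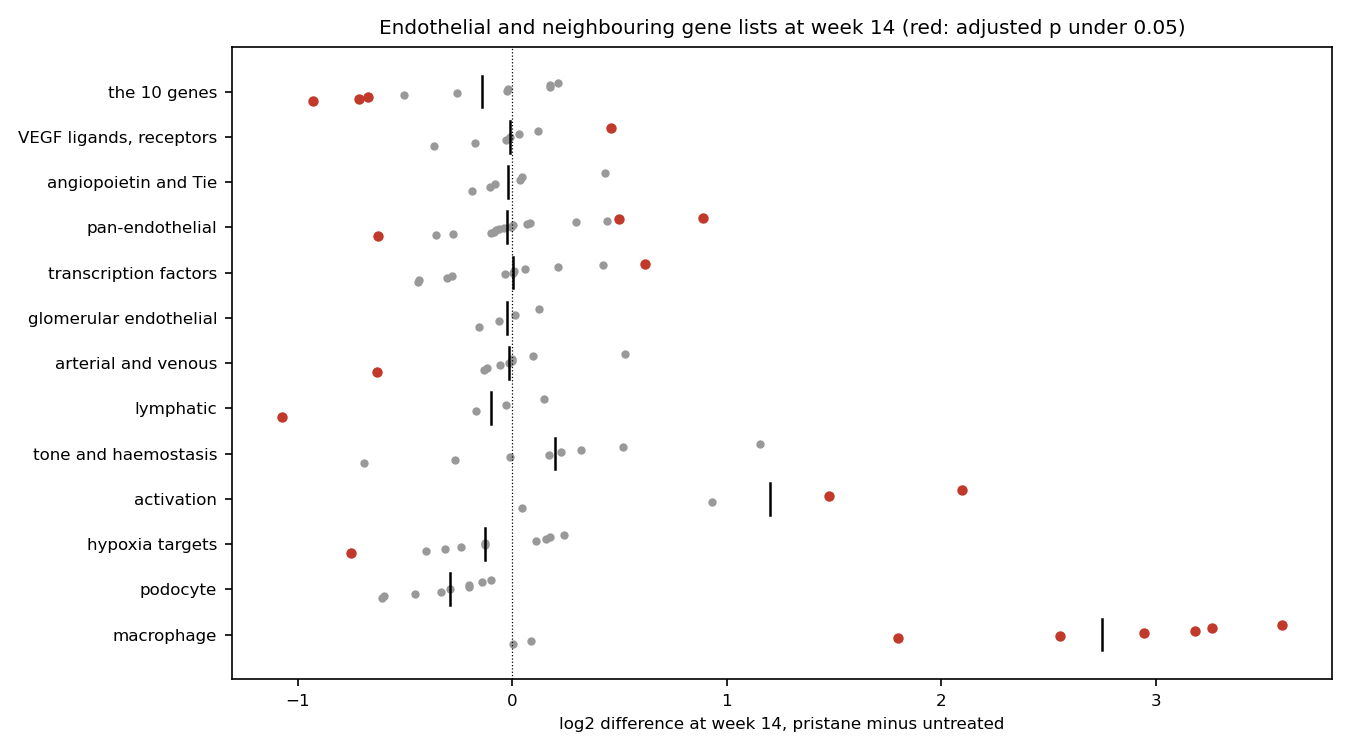
Log2 difference of pristane minus untreated at week 14 for the 10 genes and for 12 lists of related or neighbouring genes; each point is a gene, red marks an adjusted p under 0.05 and the black bar is the list's median. The 3 lowest of the 10 genes are red, most other endothelial lists centre near 0, and the macrophage list has a median of 2.75.

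The genes whose signal over the 95 arrays, all 11 groups together, was most like a member's were listed by Pearson's r as a description. For Cdh5 these were Cd34 (r = 0.57), Prkcb, BC028528, Arap3 and Gngt2. For Vegfa they were Aldh5a1 (r = 0.90), Slc16a4 (r = 0.88), Aco1 (r = 0.88), Rdh16f2 (r = 0.87) and Apoo (r = 0.87). Pristane week 14 is part of this likeness. Of the 5 genes most like Cdh5, 4 were higher and called there, Prkcb by 2.12, BC028528 by 0.98, Gngt2 by 0.65 and Cd34 by 0.50, and Arap3 differed by -0.02. The 5 genes most like Vegfa were all at a lower mean at week 14 after pristane, by -0.60 to -2.23 on the log2 scale, and 3 of them passed the test.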

How the data were processed

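Total RNA of whole kidneys was extracted with Trizol, labelled with the NuGEN Ovation Biotin system and hybridised to Affymetrix HT MG-430 PM arrays, 1 array per kidney. Per the labels and methods the authors normalized probe intensities by RMA, and the deposited values are log2 signal; the labels also name Partek. The 104 control probe sets were left out of the 45141 in the table, which leaves 45037. Of all values 18.6% lie at the floor of 2.21, and 64.3% of probe sets have a value that over 10 arrays share. Array medians lay between 4.22 and 4.57. The number of arrays limits the precision, and no batch or scan date was used here. The strain, treatment and week came from the labels, sex and age matching from the methods.

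Pristane and untreated kidneys of each week were fitted alone with lmFit and eBayes of limma 3.58.1 in R 4.3.3, two-sided, with Benjamini-Hochberg adjustment over all 45037 probe sets and a call at an adjusted p under 0.05. Interactions of neighbouring weeks and F tests across weeks were adjusted in the same way. Of the 28898 probe sets with 1 symbol, the one with the highest mean stood for each of 17097 genes. Pairs of members were tested in Python 3.11.15 with NumPy 2.4.6. The fits were tested on simulated data.

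The members and lists were chosen with earlier results of these data known. All 10 members were named, with all their probe sets; from each other list up to 3 genes with the largest change past the test at week 14, or 1 past it at another week; and the 5 genes most like Cdh5 and Vegfa. Vegfb, Flt4 and Edn1 fall outside this rule and were named after their values were seen. Listed genes with no probe set of 1 symbol were not used here. Replicate numbers were not used to pair the mice in the main fits. At no week did every same-numbered pair correlate above 0.1. At week 2, 5 of 9 pairs did, and at week 4 r ran from -0.50 to 0.56. Different-numbered pairs were not compared, so whether numbers pair the mice is not known. Alternatives were other normalizations, filters, fits, thresholds, covariates and samples.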

Additional observations from a re-analysis of the deposited data

Results flagged for a closer look

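Kidneys far from the rest of their group were looked for in the 10 members and 11 groups by Dixon's test, and 11 of 110 sets had one, where chance gives about 1 in 20. These came from 9 mice. Vegfa was 7.87 in untreated mouse 10 of week 12, against 8.50 to 8.85 in the other 9 mice of its group; this was the mouse with the macrophage mean of 7.89. In untreated mouse 7 of week 4, Emcn was 7.74 against 8.52 to 8.95 in the others and Plvap 7.32 against 7.68 to 7.97. In untreated mouse 2 of week 8, Ehd3 was 6.45 against 7.21 to 8.04 and Plvap 6.80 against 7.49 to 7.92. Cdh5 was 4.79 in untreated mouse 10 of week 2, against 5.06 to 5.21. The other 5 were of Vwf, whose values gather at 3.94: 3.43 in untreated mouse 6 of week 8, 4.26 in pristane mouse 4 of week 8, 4.65 in untreated mouse 6 of week 12, 4.02 in pristane mouse 4 of week 12 and 4.24 in pristane mouse 6 of week 14.

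For 2 members every pristane kidney lay on the opposite side of the untreated mean at different weeks. Every pristane kidney of week 8 had a Kdr signal above the untreated mean, by 0.10 on average, and every one of week 14 a signal below it, by -0.67 on average. The week 8 side was narrow: the lowest, pristane mice 6 and 8, read 8.807 against an untreated mean of 8.801. The value 8.807 was the commonest one of Kdr and was shared by 15 arrays. How many of all genes change side in this way was not counted. For Vwf every pristane kidney was above the untreated mean at week 14, by 0.18 on average, and below it at week 12, by -0.071 on average. The week 12 value rests on untreated mouse 6 (4.65): without it the difference was -0.0011. That of week 14 was 0.086 without untreated mouse 2. The difference between weeks 8 and 14 was not tested for Kdr, and that between weeks 12 and 14 did not pass for Vwf (log2 0.25, limma adjusted p = 0.315).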

How the results depend on the processing

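At weeks 2, 4 and 8 the count of members called was 0 under every alternative run, and at week 12 it was 1, Plvap, with all groups in 1 fit (adjusted p = 0.0153) and 0 otherwise. At week 14 the count of 3 held with median centring, quantile normalization, the filter at the 40th percentile, the trended and robust fit, means over the probe sets of a gene and array weights, and it was 4 with all groups in 1 fit and relative to Pecam1, Cdh5 and Emcn, an alternative chosen after their differences near or above 0 had been seen, which it therefore restates. It fell to 0 when the threshold was 0.01 and 0 when a fold of over 2 was also asked for. It was also 0 with the adrenal signal as a covariate (adjusted p of the 3 genes 0.0848 to 0.101) and 0 with the replicate block (adjusted p 0.317 to 0.366). That block fit kept only the 5 replicate numbers found in both groups of week 14, so it also used fewer pristane mice. Whether numbers pair the mice is not known. The block changed no call at the other weeks. Leaving out 1 mouse gave 0 to 4 at week 14, and 0 to 4 for the effect at week 14 against week 12. That last count was 3 with the filter, 4 with all groups in 1 fit and 3 with array weights. Across weeks, the threshold of 0.01 left 1 of 3 untreated members, Kdr, and 4 of 7 pristane members, and leaving out 1 mouse gave 3 to 4 and 6 to 7. Among untreated kidneys across weeks, Flt1 was not called after quantile normalization (adjusted p = 0.4995) or by the mean over its probe sets (adjusted p = 0.315), and Tek was called after quantile normalization (adjusted p = 0.00604). Among pristane kidneys, Cdh5 was not called after median centring (adjusted p = 0.063). No called difference changed sign. The cause of these changes was not tested. Signals near the floor, as of Vwf, limit what can be seen.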

Other observations

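Further lists of cells that a whole kidney sample can hold were counted at week 14, where 11.8% of all genes were called in either direction. Of 4 lymphatic genes 1 was lower, Prox1, a transcription factor of lymphatic endothelium, by -1.08 (limma, adjusted p = 0.0421), while Lyve1, the hyaluronan receptor of the same vessels, differed by 0.15 (adjusted p = 0.616). Of 3 erythroid genes 1 was lower, Slc4a1, the anion exchanger of red cells, of which intercalated cells of the kidney make a shorter form, by -2.03 (adjusted p = 0.0305); Alas2, the heme synthesis enzyme of red cells, differed by 0.08 (adjusted p = 0.527). Of 6 platelet genes 0 were called, and Ppbp and Gp6 were at the floor in all kidneys of both groups of that week. Of 10 adrenal genes 0 were called, with means from 3.52 to 3.77 in untreated and from 3.47 to 6.60 in pristane kidneys. Of 3 fat genes 0 were called, with a median log2 difference of -1.38. An unadjusted p under 0.05 was found for 2 of the 3, and for 10663 of all 45037 probe sets. Their mean ranged from 5.47 to 7.27 in untreated and from 3.02 to 6.09 in pristane kidneys. The part of fat in the other differences was not tested. Lyve1 and Alas2 were named after their values were seen.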
